A study of Mus musculus with 24 samples.

Results

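The 10 genes described here encode matricellular proteins: Spp1, Tnc, Postn, Sparc, Thbs1, Thbs2, Thbs3, Thbs4, Ctgf and Cyr61. They were chosen by name, as the entries of a table of 37991 Ensembl genes whose identifiers carry these symbols in the GENCODE M1 annotation, and all 10 were found. Ctgf and Cyr61 are called Ccn2 and Ccn1 in later annotations. The table holds RNA-seq counts of 24 mammary samples, 3 PyMT and 3 FVB female mice at each of weeks 6, 8, 10 and 12. PyMT mice were heterozygous for a transgene, the polyoma middle T antigen driven by the mouse mammary tumor virus promoter, on the FVB/N background, and their mammary tumors or preneoplastic glands were taken. FVB mice of the same ages had no transgene and gave normal mammary glands. The PyMT glands of week 6 were staged as hyperplasia, those of week 8 as adenoma/MIN, and those of weeks 10 and 12 as early and late carcinoma, respectively. No other allele or treatment is named for either genotype. Whole tissue was sequenced, so fewer cells of a type and less RNA per cell cannot be told apart in any difference below.

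Matricellular proteins are secreted into the extracellular matrix, where they act on cells rather than bear load. They bind integrins and other surface receptors, collagens, proteases and growth factors, and most are sparse in resting adult tissue and abundant during development, wound repair and tumor growth. Spp1 encodes osteopontin, a phosphoprotein that binds integrins and CD44 and is made by epithelial cells, macrophages and bone cells. Tnc encodes tenascin C and Postn encodes periostin, both typical of activated stroma. Sparc encodes a collagen-binding glycoprotein of fibroblasts and endothelial cells. The thrombospondins fall into a group of trimers, Thbs1 and Thbs2, which restrain blood vessel growth through CD36 and CD47, and a group of pentamers that includes Thbs3 and Thbs4. Ctgf and Cyr61 are CCN proteins whose genes respond to the transcriptional coactivators YAP and TAZ.

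The start regions of 3 members are shown because these genes stand for the 3 patterns described below, a large increase in PyMT, a decrease in PyMT and a small difference. Each sequence runs from 250 bases before to 50 bases after a RefSeq start on GRCm38.p6, 300 bases in all. Capitals mark matches to the TATA box TATAAA, the AP-1 motif TGANTCA, the TEAD motif GGAATG or the RUNX motif TGTGGT on either strand.
Spp1, chr5:104434861-104435160, plus strand: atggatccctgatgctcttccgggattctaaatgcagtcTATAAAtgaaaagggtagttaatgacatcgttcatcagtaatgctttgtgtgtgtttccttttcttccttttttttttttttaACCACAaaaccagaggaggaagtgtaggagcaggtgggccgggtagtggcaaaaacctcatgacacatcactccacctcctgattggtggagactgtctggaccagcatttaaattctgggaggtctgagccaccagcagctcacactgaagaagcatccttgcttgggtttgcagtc
Sparc, chr11:55420031-55420330, minus strand: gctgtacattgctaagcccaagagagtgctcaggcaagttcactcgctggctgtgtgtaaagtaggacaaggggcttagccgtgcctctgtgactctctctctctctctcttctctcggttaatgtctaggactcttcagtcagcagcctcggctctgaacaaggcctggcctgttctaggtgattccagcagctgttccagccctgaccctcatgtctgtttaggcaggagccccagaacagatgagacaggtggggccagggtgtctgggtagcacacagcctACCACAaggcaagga
Cyr61, chr3:145649936-145650235, minus strand: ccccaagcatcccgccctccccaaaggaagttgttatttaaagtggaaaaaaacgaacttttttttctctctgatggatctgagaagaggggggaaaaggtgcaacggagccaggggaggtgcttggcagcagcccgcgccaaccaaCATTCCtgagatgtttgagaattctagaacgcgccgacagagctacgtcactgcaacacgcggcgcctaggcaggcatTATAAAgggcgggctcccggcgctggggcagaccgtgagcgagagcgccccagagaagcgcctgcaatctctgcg
The Spp1 region held TATAAA at 211 bases and the RUNX letters (ACCACA on the strand shown) at 128 bases before the start. The Sparc region held the RUNX letters 36 bases into the transcript and none of the other motifs. The Cyr61 region held TATAAA at 25 bases and the TEAD letters (CATTCC on the strand shown) at 103 bases before the start. Of 32851 start regions of this length in the same table, 13.6% held TATAAA, 7.81% the AP-1 letters, 14.7% the TEAD letters and 16.8% the RUNX letters. A match describes the letters of the window only. RefSeq start regions were matched for 8 of the 10 members, not for Ctgf or Thbs1.

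Total counts ran from 6969375 to 13516601 per library. Normalized counts below are counts divided by DESeq2's size factors, differences are log2 fold changes of PyMT over FVB from edgeR, and a gene was called when its adjusted p was under 0.05 and its fold change above 2. A packet size, meaning that more genes had a count of about that size than had a slightly lower one, was found in 6 PyMT and 7 FVB libraries, 13 in all, and lay between 8 and 25 counts. The FVB library of week 10 replicate 3 had a packet size of 19 and the PyMT library of week 8 replicate 2 a packet size of 23. In these 2 libraries, 4.4% and 2.87% of 3799 genes with a median of 10 to 30 CPM over all libraries had a count of 0. The summed normalized count of 6 skeletal muscle markers exceeded 100000 in 4 FVB libraries, week 6 replicates 1 and 2, week 10 replicate 3 and week 12 replicate 1 (107310 to 484480), and was 111 to 4668 in the other 8 FVB libraries and 75.5 to 27309 in the 12 PyMT libraries. All 10 members passed the filter on low counts (12 or more of the 24 libraries with a CPM of 1 or above). Thbs4 did so with all 12 PyMT but only 7 FVB libraries, so its place among the tested genes leaned on the group where it was high.

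Averaged over the 4 weeks, 4 members were higher in PyMT and 4 were lower. Spp1, Thbs4, Thbs1 and Tnc rose, and Sparc, Thbs2, Thbs3 and Postn fell. Ctgf and Cyr61 passed the adjusted p but differed by less than 2-fold. Among all 14918 tested genes, 8.7% were called higher and 17.5% lower in this contrast. The median difference of the 10 members was 0.58 on the log2 scale, beside -0.03 over all tested genes.

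**Figure D1:**
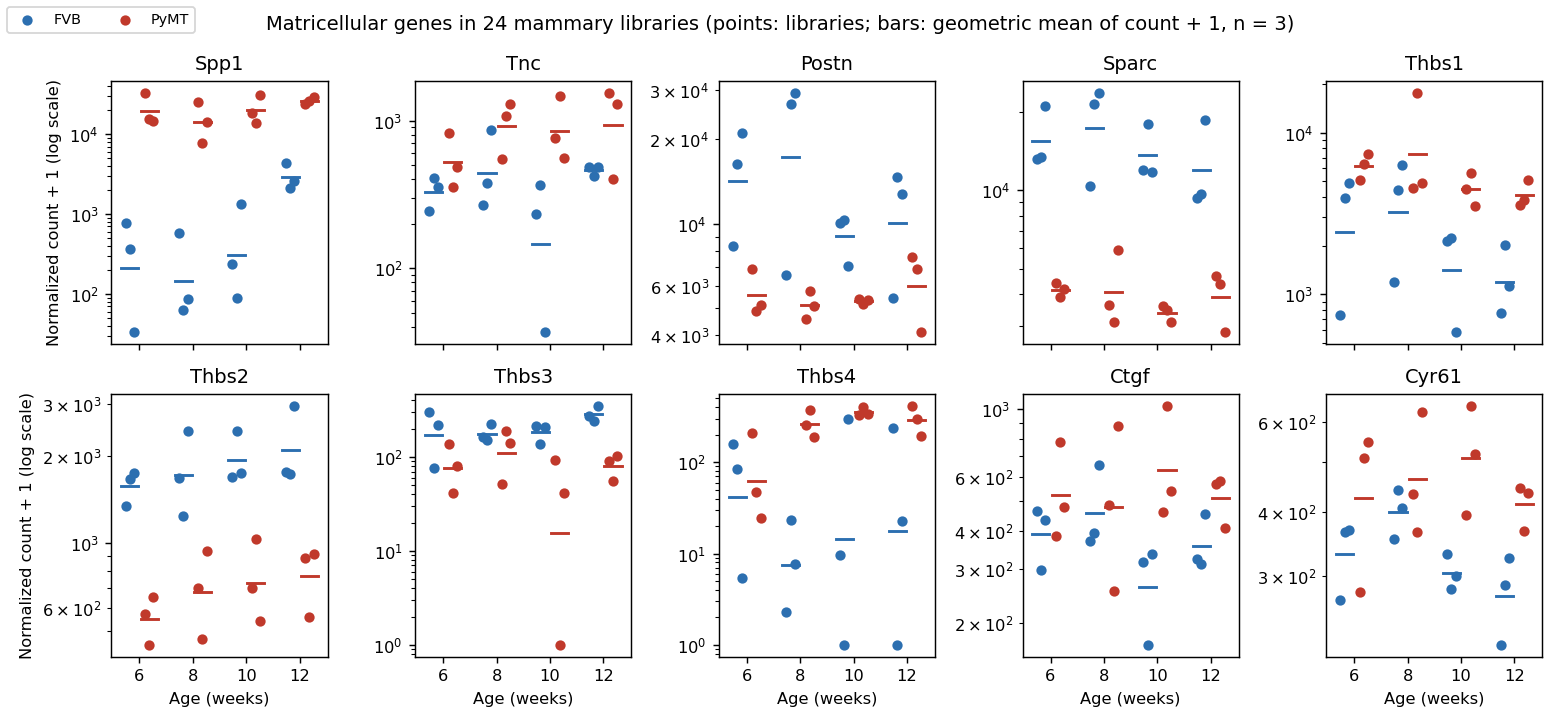
Normalized count plus 1 (log scale, a separate axis for each gene) of the 10 members against age in weeks. Each point is 1 library, red for PyMT and blue for FVB, and each bar is the geometric mean of 3 libraries. Spp1 lies higher in every PyMT library than in any FVB library, and Sparc and Thbs2 lie lower.

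Spp1 had the widest separation of the 10. The gene lies at chr5:104864137-104870069 on mm9, plus strand, and codes for protein. At week 6 the PyMT libraries held 32811, 15503 and 14451 normalized counts and the FVB libraries 781, 366 and 32.6. At week 8 they held 25523, 7668 and 14411 in PyMT and 575, 61.6 and 85.9 in FVB. The groups were apart at both weeks, and FVB libraries of the same week differed among themselves by several fold. At week 10 the values were 18163, 13994 and 31060 in PyMT libraries, against 238, 89.2 and 1332 in FVB. At week 12 they were 23863, 25994 and 29507 in PyMT and 4376, 2115 and 2608 in FVB. The 3 FVB libraries of week 12 were thus all higher than any FVB library of an earlier week, and still below the lowest PyMT library, at 7668.

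The log2 fold change of Spp1 was 5.72 ± 1.04 (SE, n = 3 per group), 6.07 ± 1.02, 5.33 ± 1.01 and 3.17 ± 0.31 at weeks 6, 8, 10 and 12, with adjusted p of 0.0114, 0.0118, 0.0103 and 3.72e-04 by edgeR's quasi-likelihood test. The mean over the 4 weeks was 5.06 ± 0.53 (adjusted p = 9.50e-08). Without FVB week 6 replicate 2 the week 6 call was lost (5.66, adjusted p = 0.0572). All 12 PyMT libraries were above all 12 FVB libraries, which 4.67% of tested genes showed, and Spp1 was the only member among them. The 4 FVB libraries rich in muscle markers held 366 to 4376 normalized counts of Spp1 and the other 8 held 32.6 to 2608. The medians were 1056 and 164, so leaving those 4 out leaned toward a larger difference. Without those 4 libraries, an alternative added after the marker levels were seen, the mean difference was 6.51. Week 6 then kept only 1 FVB library, replicate 3, which had the lowest Spp1 of all (32.6).

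Between week 6 and week 12, Spp1 in FVB differed by 2.91 ± 0.97 on the log2 scale (unadjusted p = 0.00676, adjusted p = 1.00 by edgeR). The same contrast in PyMT was 0.35 ± 0.90. The change of the PyMT versus FVB difference from week 6 to week 12 was -2.56 ± 1.29 (unadjusted p = 0.0607, adjusted p = 1.00), so a narrower difference at week 12 was not established by edgeR. With limma voom and sample quality weights, the FVB contrast was 4.40 with an adjusted p of 0.025. The summed level of the luminal epithelium markers was 8527 to 11597 in FVB at week 6 and 6402 to 18300 at week 12, with the highest of these in the week 12 library with the lowest Spp1 (replicate 2, 2115). The part of these markers in the Spp1 values was not tested.

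The receptors of matricellular proteins were taken as a list of 23 tested genes, integrin subunits and other binding partners. In the mean over the 4 weeks, 2 of the 23 were called higher in PyMT and 9 lower. Among all tested genes the shares were 8.7% and 17.5%. The median difference of the 23 was -0.02. No receptor was tested against the values of its ligands. The 2 higher genes, named here after their values were seen, were Itgb3 (1.33 ± 0.19, adjusted p = 6.92e-06), whose product pairs with integrin alpha V as an osteopontin receptor, and Itga8 (1.19 ± 0.14, adjusted p = 3.47e-07), an integrin subunit that also binds tenascin C and osteopontin. Cd44, a hyaluronan and osteopontin receptor also named after its values were seen, was called at weeks 8, 10 and 12 with 1.05, 1.05 and 1.11, and its mean difference of 0.98 lay under 2-fold. By contrast, Cd36, the thrombospondin and fatty acid receptor abundant in adipocytes and capillaries, fell by 3.63 ± 0.26 on the log2 scale (adjusted p = 3.12e-10). Its normalized counts ran from 484 to 3492 in PyMT, below the FVB range of 10573 to 26007. Cacna2d1, a calcium channel subunit to which thrombospondins bind, differed by -3.01 ± 0.38, Ddr2, a collagen receptor, by -2.66 ± 0.16, and Lrp1, an endocytic receptor for thrombospondins, by -1.83 ± 0.14. Each of these 4 lower receptors was called at all 4 weeks.

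**Figure D2:**
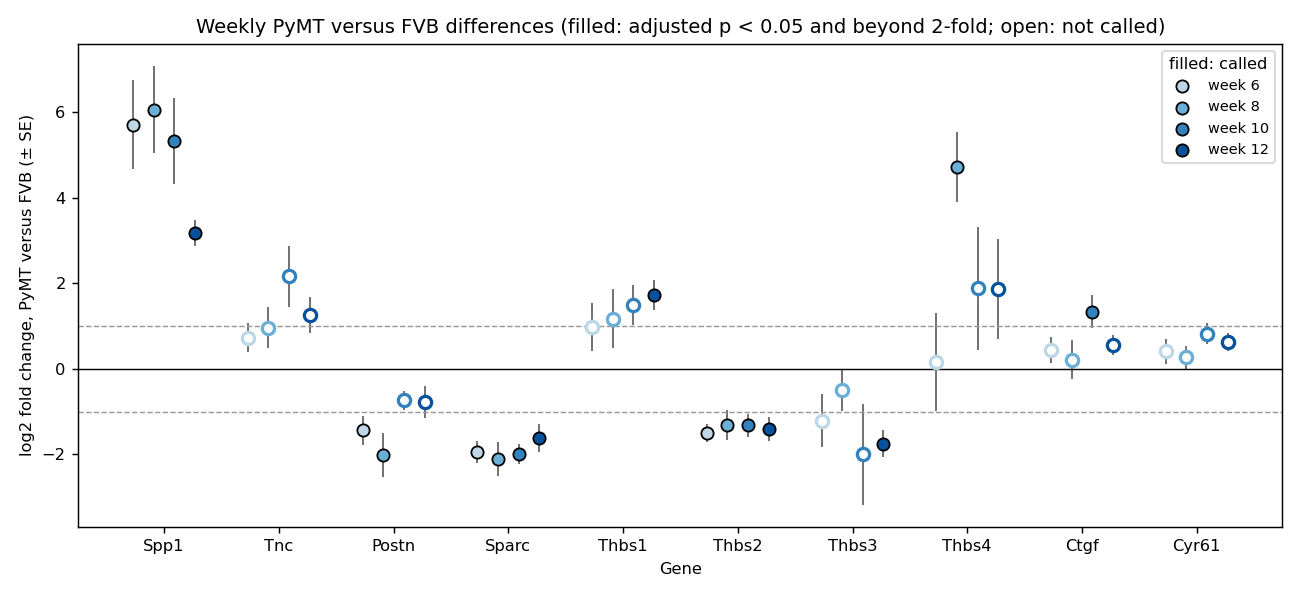
Log2 fold change of PyMT versus FVB (± SE, n = 3 per group) for each member at weeks 6, 8, 10 and 12. Filled points were called and open points were not, and dashed lines mark a 2-fold difference. Spp1, Sparc and Thbs2 were called at all 4 weeks.

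Week by week, 1 member was called higher and 3 lower at week 6 (3.58% and 6.46% of all tested genes), 2 higher and 3 lower at week 8 (3.57% and 6.37%), 2 higher and 2 lower at week 10 (4.83% and 9.09%), and 2 higher and 3 lower at week 12 (7.75% and 13%). Spp1 was higher at every week. Thbs4 joined it at week 8, Ctgf at week 10 and Thbs1 at week 12. Sparc and Thbs2 were lower at every week, Postn at weeks 6 and 8 and Thbs3 at week 12. The plot of weekly differences shows that all 40 weekly estimates had the sign of their gene's mean difference.

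Sparc lies at chr11:55208002-55233582 on mm9, minus strand. At week 6 its normalized counts were 4387, 3906 and 4158 in PyMT libraries, against 13245, 13447 and 21011 in FVB. At week 8 they were 3639, 3116 and 5910 in PyMT and 10347, 21415 and 23660 in FVB. The genotypes were apart at both weeks, and the FVB libraries were more spread than the PyMT libraries. At week 10 the values were 3587, 3479 and 3116 in PyMT and 11950, 18029 and 11774 in FVB, and those of week 12 were 4689, 4382 and 2859 in PyMT and 9375, 9685 and 18682 in FVB. No PyMT library reached the lowest FVB library, as was true of Thbs2 and of 7.22% of tested genes.

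The difference of Sparc was -1.94 ± 0.25, -2.11 ± 0.40, -1.98 ± 0.24 and -1.62 ± 0.32 at weeks 6, 8, 10 and 12, with adjusted p of 0.00317, 0.0174, 0.00143 and 0.00753 by edgeR's quasi-likelihood test. The mean was -1.92 ± 0.17 (adjusted p = 5.81e-09). The week 8 call was lost without PyMT week 8 replicate 1 (-2.01, adjusted p = 0.0861) and without FVB week 8 replicate 2 (-1.99, adjusted p = 0.0629). Genes whose values followed Sparc most closely within both genotypes were Col3a1 (mean Pearson r = 0.872 over 12 PyMT and 12 FVB libraries), Col4a2 (0.865) and Col1a2 (0.864), which encode fibrillar and basement membrane collagens. These r are descriptive, over libraries that also share their depth and tissue makeup.

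Like Sparc, the fibroblast and endothelial markers were lower in PyMT, as were the 6 adipocyte and 4 of 6 myoepithelial markers given below. All 6 fibroblast markers (Pdgfra, Col1a1, Col1a2, Col3a1, Dcn and Lum) were called lower in the mean difference, with a median of -1.98, and their summed normalized count was 21429 to 44769 in PyMT and 48426 to 186400 in FVB. Dcn, a collagen-binding proteoglycan, differed by -2.93 ± 0.19, Lum, another proteoglycan of this kind, by -2.29 ± 0.15, Pdgfra, a growth factor receptor of fibroblasts, by -2.19 ± 0.14, and Col3a1 by -1.78 ± 0.20. All 6 endothelial markers were called lower with a median of -2.40, and Vwf, the von Willebrand factor, fell by 3.05 ± 0.21 on the log2 scale. Kdr, a VEGF receptor, differed by -2.52 ± 0.19, Tek, the angiopoietin receptor, by -2.40 ± 0.19 and Cdh5, the endothelial cadherin, by -2.39 ± 0.20. The endothelial sum was 742 to 2048 in PyMT and 5368 to 8958 in FVB. No gene of either list was at 0 in all libraries of a genotype, and the part of either cell type in the Sparc values was not tested.

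Postn lies at chr3:54165031-54194961 on mm9, plus strand. At week 6 its normalized counts were 6892, 4874 and 5139 in PyMT and 8305, 16325 and 21112 in FVB, and the groups did not overlap. At week 8 they were 4588, 5762 and 5069 in PyMT and 6552, 26689 and 29244 in FVB. The FVB libraries of these weeks spanned a wider range than the PyMT libraries of all weeks, which held between 4116 and 7595. At week 10 the values were 5409, 5177 and 5340 in PyMT and 10078, 10273 and 7081 in FVB, and those of week 12 were 7595, 6894 and 4116 in PyMT and 5419, 14645 and 12743 in FVB, where the groups overlapped.

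Postn differed by -1.44 ± 0.35 at week 6 and -2.01 ± 0.51 at week 8, with adjusted p of 0.0328 and 0.044. At week 10 the difference was -0.73 ± 0.22 (adjusted p = 0.0562) and at week 12 it was -0.77 ± 0.38 (adjusted p = 0.167). The mean was -1.25 ± 0.21 (adjusted p = 5.11e-05). The weekly calls were fragile. Leaving out any 1 of 5 libraries ended the week 6 call (PyMT replicates 1, 2 and 3, FVB replicates 2 and 3, adjusted p between 0.0884 and 0.136) and any 1 of 5 ended the week 8 call (PyMT replicates 1, 2 and 3, FVB replicates 2 and 3, adjusted p between 0.0975 and 0.152). Without FVB week 12 replicate 1, Postn was called lower at week 12 too (-1.10, adjusted p = 0.0195). The change of the difference from week 8 to week 10 was 1.25 ± 0.60 with an unadjusted p of 0.0481 and an adjusted p of 1.00.

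Tnc lies at chr4:63620819-63681760 on mm9, minus strand. Its normalized counts ran from 355 to 1538 in the 12 PyMT libraries with a median of 790, and from 36 to 867 in FVB with a median of 369. At week 10, where the estimate was highest, the PyMT libraries held 757, 1473 and 559.5 and the FVB libraries 233, 364 and 36. The groups did not overlap at that week, and the lowest value came from FVB week 10 replicate 3, one of the libraries with packets and muscle markers. At week 12 the values were 1538, 402 and 1296 in PyMT and 480.3, 422 and 487 in FVB, and PyMT replicate 2 lay below all 3 FVB libraries.

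The difference of Tnc was 0.73 ± 0.35, 0.97 ± 0.48, 2.17 ± 0.72 and 1.27 ± 0.42 at weeks 6, 8, 10 and 12, and none of these was called (adjusted p of 0.22, 0.234, 0.0811 and 0.0539). The mean of 1.27 ± 0.30 was called (adjusted p = 0.00125). Without FVB week 10 replicate 3 the week 10 difference was 1.68 with an adjusted p of 0.0244, and without PyMT week 12 replicate 2 the week 12 difference was 1.66 with an adjusted p of 0.00277. With limma voom and sample quality weights the mean difference was 0.96, just under 2-fold, with an adjusted p of 0.00863. Swap70 (mean r = 0.857), Stoml1 (0.85) and 1190003J15Rik (0.829) followed Tnc most closely within the genotypes.

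The 4 thrombospondin genes did not move together. Thbs1, at chr2:117937612-117952869 on mm9, plus strand, rose, while Thbs2, at chr17:14802507-14831269, minus strand, which encodes the closest relative of the Thbs1 product, fell. At week 6 Thbs1 held 5066, 6365 and 7325 normalized counts in PyMT and 737, 3929 and 4848 in FVB. At week 8 it held 4561, 17591 and 4904 in PyMT and 1191, 4415 and 6258 in FVB. The groups overlapped at week 8, and the high PyMT value came from replicate 2, the library with a packet size of 23. At week 10 the values were 4446, 5629 and 3521 in PyMT and 2130, 2235 and 584 in FVB, and those of week 12 were 3574, 3829 and 5096 in PyMT and 759, 2001 and 1127 in FVB. From week 10 on, and at week 6, every PyMT library was above every FVB library of its week.

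The difference of Thbs1 was 0.98 ± 0.56, 1.18 ± 0.68, 1.50 ± 0.47 and 1.73 ± 0.35 at weeks 6, 8, 10 and 12, and the last was called (adjusted p = 0.008, beside 0.31, 0.306 and 0.0706). With all 24 samples in the fit that call was lost (1.71, adjusted p = 0.0638). The mean was 1.34 ± 0.32 (adjusted p = 0.00144). Without PyMT week 8 replicate 2 the week 8 difference was 0.30, with an adjusted p of 0.807. Without FVB week 10 replicate 3 the week 10 difference was 1.10 and was called (adjusted p = 0.00681). The 4 FVB libraries rich in muscle markers had a median of 748 normalized counts of Thbs1 and the other 8 a median of 2182. Leaving those 4 out, with their lower median, leaned toward a smaller difference, and the mean difference was then 1.04. Week 6 kept only 1 FVB library in that fit, replicate 3, with the highest Thbs1 of that week's FVB libraries (4848). Tpm4, a tropomyosin of non-muscle cells, had the pattern most like Thbs1 (mean r = 0.853), followed by Aim1 (0.843) and 2610307P16Rik (0.841).

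Thbs2 was called at every week. Its normalized counts at week 6 were 568, 446 and 651 in PyMT libraries, against 1339, 1664 and 1738 in FVB. At week 12 they were 891, 558 and 917 in PyMT and 1760, 1733 and 2958 in FVB. Over all weeks PyMT ran from 446 to 1033 and FVB from 1243 to 2958, without overlap. The difference was -1.51 ± 0.21, -1.31 ± 0.34, -1.32 ± 0.27 and -1.40 ± 0.28 at weeks 6, 8, 10 and 12 (adjusted p of 0.00427, 0.0473, 0.0137 and 0.00789) and -1.40 ± 0.15 in the mean (adjusted p = 1.83e-07). At week 8 the call was lost without any 1 of the 6 libraries (adjusted p between 0.054 and 0.145), and at week 10 it was lost without PyMT week 10 replicate 1 (-1.29, adjusted p = 0.066). With library size only it was lost at week 8 (-1.08, adjusted p = 0.0834), as it was for week 10 (-1.03, adjusted p = 0.0871).

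Thbs3, at chr3:89019102-89030759 on mm9, plus strand, overlaps Mtx1 on the other strand. The strand setting of the counting is not given in the sources used here, so its counts are uncertain where the models overlap. At week 12 it held 90.5, 54.5 and 102 normalized counts in PyMT and 270.4, 243 and 348 in FVB, and the groups were apart. At week 10 it held 92.5, 0 and 40.1 in PyMT and 213, 137 and 207 in FVB, and the 0 belongs to a library with a packet size of 15. The difference was -1.21 ± 0.62, -0.49 ± 0.50, -1.997 ± 1.18 and -1.75 ± 0.32 at weeks 6, 8, 10 and 12, of which the last was called (adjusted p = 0.00528). With all 24 samples in the fit that call was lost (-1.78, adjusted p = 0.123). The mean was -1.37 ± 0.40 (adjusted p = 0.00637).

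Thbs4 encodes a thrombospondin known from muscle, tendon and the heart, and lies at chr13:93521545-93564773 on mm9, minus strand. At week 6 it held 206, 45.9 and 23.8 normalized counts in PyMT and 156, 83.3 and 4.41 in FVB, and the groups overlapped. At week 8 it held 253, 368 and 187 in PyMT and 1.26, 22.1 and 6.78 in FVB. All PyMT libraries of week 8 were several fold above the FVB libraries of that week. At week 10 the values were 325, 406 and 339 in PyMT and 8.62, 0 and 300.5 in FVB, and those of week 12 were 412, 298 and 193 in PyMT and 234, 0 and 21.9 in FVB. FVB week 10 replicate 3 and FVB week 12 replicate 1 were the only FVB libraries above 200, and both were rich in muscle markers.

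**Figure D3:**
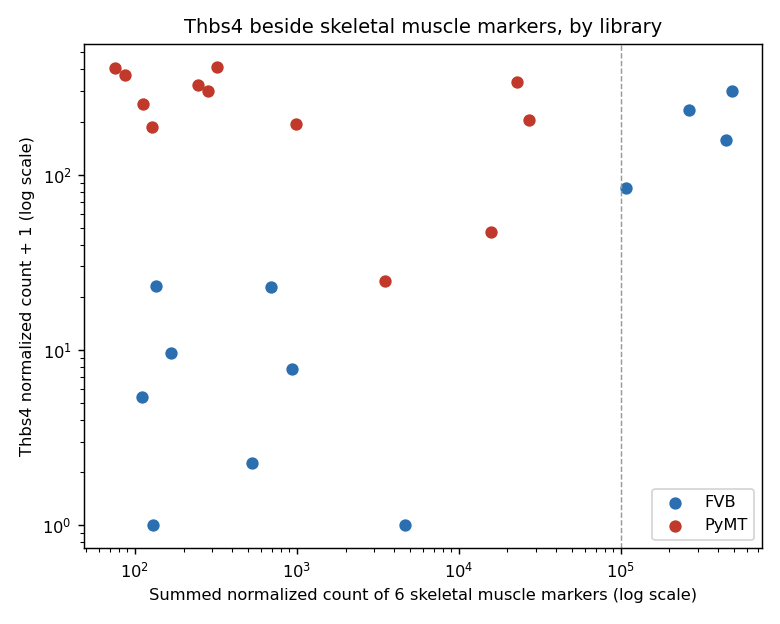
Thbs4 normalized count plus 1 against the summed normalized count of 6 skeletal muscle markers (both log scales), 1 point per library, red for PyMT and blue for FVB, with a dashed line at 100000. The 4 FVB libraries right of the line hold 83.3 to 300.5 normalized counts of Thbs4 and the other 8 FVB libraries hold 0 to 22.1. All 12 PyMT libraries lie left of the line. The 9 of weeks 8 to 12 hold 187 to 412, and those of week 6 hold 206, 45.9 and 23.8.

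Thbs4 in FVB moved with the muscle markers (Acta1, Ckm, Mb, Myh4, Tnnt3 and Tnni2). In the 4 muscle-rich FVB libraries it held 83.3 to 300.5 normalized counts, and in the other 8 it held 0 to 22.1 with a median of 5.59. The genes most like Thbs4 within the genotypes were Slc41a3 (mean r = 0.842), Itgb1bp2 (0.785), which encodes the muscle protein melusin, and Bin1 (0.779). In PyMT the muscle sum at weeks 8 and 12 was 87.2 to 990, and the Thbs4 values there were 187 to 412. The PyMT muscle sums of week 10 were 246, 75.5 and 22885. Those of week 6 were 27309, 15847 and 3516, in libraries with 206, 45.9 and 23.8 normalized counts of Thbs4. The part of muscle in the Thbs4 values was not tested.

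The difference of Thbs4 was 0.16 ± 1.14, 4.72 ± 0.82, 1.89 ± 1.44 and 1.87 ± 1.17 at weeks 6, 8, 10 and 12, and the second was called (adjusted p = 0.0129, beside 0.947, 0.436 and 0.273). That call was lost without PyMT week 8 replicate 1 (4.76, adjusted p = 0.0546) and with all 24 samples in the fit (4.72, adjusted p = 0.0511). Without FVB week 10 replicate 3 the week 10 difference was 6.24 (adjusted p = 0.00145), and without FVB week 12 replicate 1 the week 12 difference was 4.76 (adjusted p = 0.00919). The mean was 2.14 ± 0.73 (adjusted p = 0.0182). Without the 4 muscle-rich FVB libraries, a split made after the marker levels were seen, it was 5.04. These 4 held more Thbs4 than any other FVB library, so leaving them out could only raise the difference. No PyMT library was left out of that fit, although muscle sums reached 27309 in PyMT and 4668 in the FVB libraries kept. Week 6 had only 1 FVB library left in that fit, which was taken to vary like the other groups. Of 6 skeletal muscle markers, 5 were called lower in the mean difference with a median of -4.68, among them Ckm (-5.09 ± 1.44) and Acta1 (-4.94 ± 1.29). Without the 4 muscle-rich libraries these 2 turned to 3.45 and 0.80 and were not called. Markers of tendon and cartilage were low in both genotypes, with a summed normalized count of 42 to 262 over 6 genes in PyMT and 22 to 99.6 in FVB and 1 of the 6 at 0 in every library, and Comp, the thrombospondin of cartilage, was listed between 0 and 129 in PyMT and between 0 and 25.2 in FVB. The mean difference of Mkx, a transcription factor of tendon, was 1.25 ± 0.82 (adjusted p = 0.217). That of Comp was 2.70 ± 1.00 (adjusted p = 0.0303) and leaned on week 10. Its weekly differences were 1.12, 0.50, 7.31 and 1.94 at weeks 6, 8, 10 and 12, none of them called. Without PyMT week 6 replicate 1 the Comp difference was 1.29 (adjusted p = 1.00), and without PyMT week 12 replicate 3 it was 2.27 (adjusted p = 0.0703).

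Ctgf, at chr10:24315248-24318489 on mm9, plus strand, and Cyr61, at chr3:145309935-145312949, minus strand, differed less than the other members. Ctgf held 253 to 1021 normalized counts in PyMT with a median of 512, and 169 to 657 in FVB with a median of 354. At week 10 its values were 460.0, 1021 and 539 in PyMT and 316, 169 and 336 in FVB, and the groups did not overlap. That was the only week at which it was called (1.34 ± 0.38, adjusted p = 0.0498). The call was lost without any 1 of the 3 PyMT libraries of week 10, and without FVB week 10 replicate 1 or 2 (adjusted p between 0.0675 and 0.167). At weeks 6, 8 and 12 the difference of Ctgf was 0.44 ± 0.30, 0.22 ± 0.46 and 0.56 ± 0.23, and the mean was 0.63 ± 0.20 (adjusted p = 0.0115).

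Cyr61 held 278 to 642 normalized counts in PyMT with a median of 440, and 219 to 441 in FVB with a median of 327. Its values at week 10 were 394, 642 and 518 in PyMT and 329.9, 282 and 299 in FVB, without overlap. The difference was 0.41 ± 0.30, 0.27 ± 0.27, 0.82 ± 0.25 and 0.63 ± 0.22 at weeks 6, 8, 10 and 12, none of them called (adjusted p of 0.432, 0.575, 0.0595 and 0.0624), and the mean was 0.52 ± 0.13 (adjusted p = 0.00208). The Cyr61 region printed above holds the TEAD letters, as did 14.7% of the 32851 start regions. The Thbs4 start region held them too. TEAD factors are the DNA-binding partners of YAP and TAZ, whose part in the Cyr61 values was not tested.

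Other genes known as YAP and TAZ targets were mostly lower in PyMT. Of 22 matched genes of that list, 20 were tested. In the mean difference 2 were called higher and 13 lower, beside 8.7% and 17.5% of all tested genes. The median of the list was -1.23. The higher genes, named after their values were seen, were Tgfb2, a transforming growth factor beta (1.53 ± 0.20, adjusted p = 1.42e-06), and Nuak2, a kinase (1.19 ± 0.29, adjusted p = 0.00187). The lower genes with the largest differences were Dlc1 (-3.21 ± 0.21), Ccdc80, a secreted protein of stroma (-2.97 ± 0.20), Rbms3, an RNA-binding protein (-2.81 ± 0.27), and Crim1 (-2.55 ± 0.16). All 4 were called at every week. Adipocyte markers fell more than any other marker list except skeletal muscle, with 6 of 6 called lower, a median of -4.06, and a summed normalized count of 733 to 12805 in PyMT and 38749 to 107260 in FVB. Among them Retn differed by -4.72 ± 0.37, Lep by -4.35 ± 0.37, Adipoq by -4.12 ± 0.29 and Plin1 by -4.00 ± 0.27, genes of adipocyte hormones and of the lipid droplet coat. Their part in the list of YAP and TAZ targets was not tested.

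**Figure D4:**
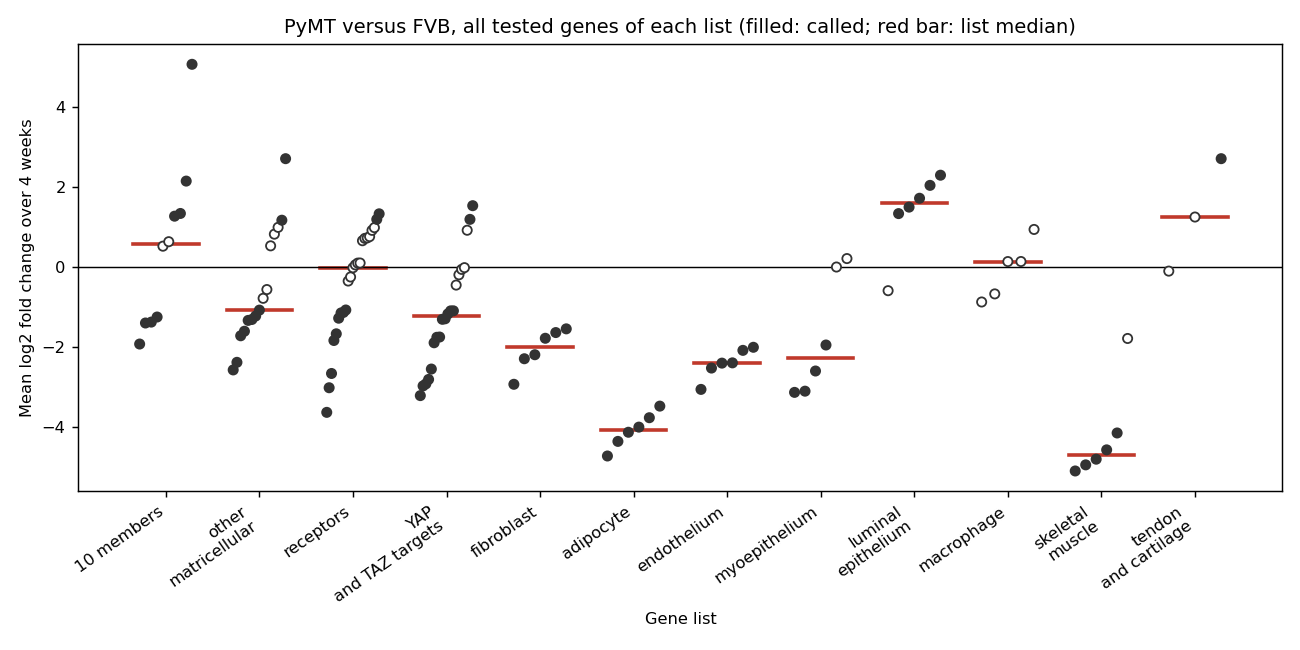
Mean log2 fold change over 4 weeks of every tested gene of the 10 members and of 11 other gene lists, filled where called, with a red bar at the list median. The members are split between 4 higher and 4 lower called genes, while the fibroblast, adipocyte and endothelial genes are all called lower.

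Matricellular genes outside the 10 members fell more often than they rose. Of 21 further genes of this kind, 15 were tested. In the mean difference 2 were called higher and 8 lower, beside 8.7% and 17.5% of all tested genes. Their median was -1.08. The higher ones, named after their values were seen, were Comp, given above, and Mgp, matrix Gla protein, an inhibitor of calcification (1.17 ± 0.23, adjusted p = 2.33e-04). The lower ones with the largest differences were Spock2, a proteoglycan of the Sparc family (-2.57 ± 0.25), Tnxb, a tenascin of loose connective tissue (-2.38 ± 0.23), Igfbp7 (-1.72 ± 0.15), and Fstl1, another relative of Sparc (-1.31 ± 0.16). The first 3 were called at all 4 weeks and Fstl1 at 3. Tnxb ran from 572 to 2317 normalized counts in PyMT and from 3620 to 12947 in FVB, opposite in direction to Tnc.

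Luminal markers moved the other way. Of 6 luminal epithelium genes, 5 were called higher in PyMT with a median of 1.61, and their sum of 19707 to 37268 in PyMT exceeded that of 4174 to 18300 in FVB. The remaining gene had a negative estimate and was not called. Elf5, a transcription factor of the secretory lineage, differed by 2.29 ± 0.17, Epcam, an epithelial adhesion molecule, by 2.04 ± 0.16 and Krt18, a keratin of luminal cells, by 1.50 ± 0.19. Of 6 myoepithelial genes, 4 were called lower, among them Oxtr, the oxytocin receptor (-3.13 ± 0.26), and Myh11 (-3.10 ± 0.23) and Acta2 (-2.60 ± 0.24), genes of the contractile apparatus. The other 2 had positive estimates and were not called. The myoepithelial sum ran from 1039 to 5415 in PyMT, beside 4302 to 15010 in FVB. Of 5 tested macrophage genes, 0 were called in the mean difference by edgeR's quasi-likelihood test, although 3 had an unadjusted p under 0.05. At single weeks, 1 was called higher at week 6 and 2 lower at week 10, beside 3.58% and 9.09% of all tested genes. Cd14, a lipopolysaccharide coreceptor, differed by 0.94 ± 0.15 (adjusted p = 3.04e-05) and Mrc1, the mannose receptor, by -0.87 ± 0.20 (adjusted p = 8.89e-04), both under 2-fold and in opposite directions. Mrc1 was called lower with limma voom (-1.02) and without PyMT week 12 replicate 1 (-1.001). Cd14 was called higher with library size only (1.22), without FVB week 10 replicate 1 (1.05) and without FVB week 12 replicate 2 (1.03). The macrophage sum was 2170 to 3651 in PyMT and 2258 to 4493 in FVB. Spp1 was higher in the PyMT libraries, whose macrophage sums overlapped those of FVB and whose luminal sums were higher. Within PyMT, the library with the highest luminal sum (week 8 replicate 2, 37268) had the lowest Spp1 (7668). The part of either cell type in the Spp1 values was not tested.

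Per kilobase of exon, the order of the members differed between the genotypes. In PyMT the median normalized count per kilobase was 12750 for Spp1, 1120 for Sparc, 821 for Thbs1, 671 for Postn, 217 for Cyr61, 206 for Ctgf, 114 for Thbs2, 105 for Tnc, 83.8 for Thbs4 and 17.6 for Thbs3. Spp1 stood apart from the next gene in every PyMT library range (4653 to 19910 per kilobase, beside 849 to 1755 for Sparc). The ranges of neighbours further down overlapped, except that the lowest Postn value (525) was above the highest Cyr61 value (317). In FVB the order was Sparc at 3964 per kilobase, Postn at 1468, Thbs1 at 340, Thbs2 at 292, Spp1 at 286, Cyr61 at 161, Ctgf at 142, Tnc at 49.2, Thbs3 at 44.7 and Thbs4 at 4.64. The place of Spp1 in FVB differed by week, since its mean per kilobase was 146 to 336 at weeks 6, 8 and 10 and 1840 at week 12, where Postn had a mean of 1395 and Thbs1 of 213. In FVB too neighbouring ranges overlapped, with Sparc at 2784 to 7027 and Postn at 691 to 3731. With the length of the longest transcript in place of all exons, Postn came before Thbs1 in PyMT (1207 and 852 per kilobase), and in FVB Spp1 came before Thbs2 (312 and 293) and Thbs3 before Tnc (53.4 and 51.9).

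**Figure D5:**
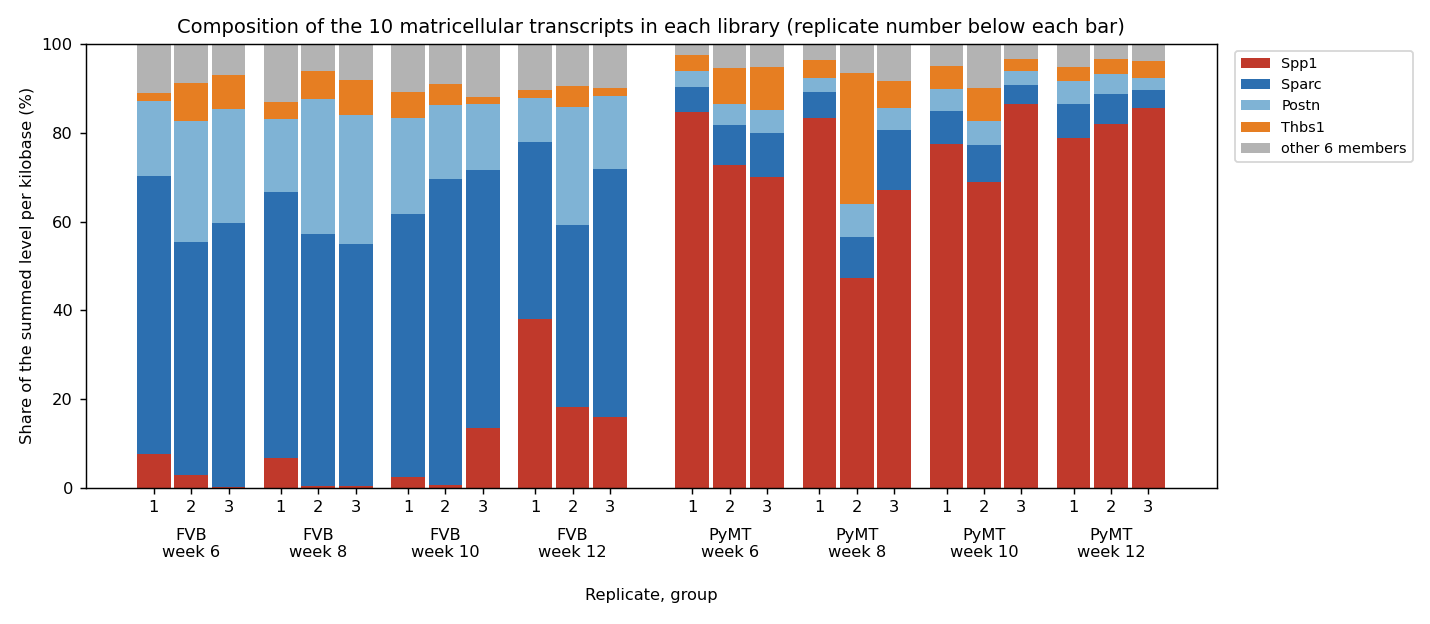
Share of each member in the summed level per kilobase of the 10 members (%), 1 bar per library, grouped by genotype and week with replicate numbers below the bars. Spp1 takes 47.2% to 86.5% in PyMT libraries and 0.189% to 38% in FVB libraries, where Sparc takes the largest share.

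As a share of the summed level per kilobase of the 10 members, Spp1 made up a median of 78.1% in PyMT (47.2% to 86.5%) and 4.86% in FVB (0.189% to 38%). Sparc made up 7.53% in PyMT (4.06% to 13.5%) and 57.4% in FVB (39.9% to 68.8%), and Postn 4.83% in PyMT and 19.2% in FVB. The lowest Spp1 share in PyMT belonged to week 8 replicate 2, whose Thbs1 share was 29.4%. The 3 highest Spp1 shares in FVB were those of week 12, at 38%, 18.3% and 15.9%. Ranked per kilobase among 14892 genes of a library, Spp1 had a median rank of 17 in PyMT (10 to 47), and it took 0.099% to 0.412% of all counts of a PyMT library.

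Between weeks, no member was called. The change of the PyMT versus FVB difference from week 6 to week 12 gave 0 called members and 0% of tested genes higher and 0% lower, although 691 genes and 0 members had an unadjusted p under 0.05 by edgeR. The change from week 8 to week 10 gave 0 called members beside 0.0067% of genes higher and 0% lower, with 533 genes and 1 member (Postn) at an unadjusted p under 0.05. Within PyMT, week 12 against week 6 gave 0 members and 0% of genes in either direction, with 1004 genes and 0 members at that unadjusted p. Within FVB the same contrast gave 0 members and 0% of genes, with 625 genes and 1 member (Spp1). DESeq2's Wald test and edgeR's likelihood ratio test also called 0 members in these 4 contrasts, and limma voom called Spp1 in the last. With 3 libraries per group, a change of several SE could stay uncalled, as Spp1 in FVB did at 2.91 ± 0.97. The lack of calls therefore does not show that levels stayed the same.

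Correlations between members were computed over the 12 libraries of each genotype, 90 relations in all, on log2(normalized count + 1) with permutation tests. Of these, 15 had an unadjusted Pearson p under 0.05 and 1 passed after Benjamini-Hochberg adjustment. Postn and Thbs1 rose and fell together in FVB (Pearson r = 0.897, permutation p = 2.10e-04, adjusted p = 0.0189, Spearman rank correlation = 0.846, adjusted p = 0.054), with r = 0.841 without the 2 libraries farthest from the median of Postn. Spp1 and Thbs1 had a negative r in both genotypes, -0.81 in PyMT and -0.80 in FVB, and Ctgf and Cyr61 had an r of 0.74 in PyMT, but none of these passed the adjustment (adjusted p of 0.068, 0.068 and 0.082). The libraries of 1 genotype also differ in week, packet size and muscle markers, and within single weeks there were too few libraries for a correlation.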

How the data were processed

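Total RNA of mammary tissue was depleted of ribosomal RNA and sequenced from directional libraries. The authors aligned reads to mm9 with GSNAP and deposited raw counts per Ensembl gene from HTSeq, with the strand setting not given in the sources used here. From these counts, edgeR 4.0.16 (R 4.3.3) gave TMM-scaled quasi-likelihood tests with Benjamini-Hochberg adjustment over 14918 genes whose CPM reached 1 in 12 or more libraries. Weekly contrasts used the 6 libraries of a week, and the mean difference and contrasts between weeks used all 24. DESeq2 1.42.0, limma 3.58.1, scaling, filter, packet size, replicate block and leave-one-out alternatives are given in the closing section. The self-test ran on simulated counts. Replicates are separate mice, and no replicate pair was a copy (chi-square per gene 19.3 to 244 over 24 pairs). Deviations of same-numbered samples of the genotypes had low r (-0.04 to 0.21, 4 of 12 over 0.1), and replicate numbers were not taken as pairs. Whether same-numbered samples shared handling was not tested further, and the replicate block is given as an alternative.

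Members and gene lists were chosen with earlier results of these data known. Named genes were the 10 members, from each list at most 4 genes called at 3 or more weeks with the largest mean difference, otherwise at most 2, and for each member the 3 tested genes with the highest mean within-genotype r. Itgb3, Itga8, Cd44, Tgfb2, Nuak2 and Mgp fall outside this rule and were named after their values were seen. Permutation tests used 100000 resamples and a pseudocount of 1.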

Additional observations from a re-analysis of the deposited data

How the results depend on the processing

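Of 600 values of the 10 members at single weeks under alternative settings, 530 kept direction and side of the threshold, 37 lost the call, 29 gained it and 4 turned sign. The 8 members called in the mean difference remained called under every alternative except Tnc under limma voom (0.96, adjusted p = 0.00863). The cause of the changes below was not tested. The number of members called was 3 at week 8 with library size only, 7 at week 10 with counts divided by packet size or with limma voom, 3 at week 12 with all 24 samples in the fit (Thbs1 and Thbs3 lost), and 1 for FVB week 12 against week 6 with limma voom (Spp1). Leaving out 1 library gave 2 to 4 called members at week 6 (2 without FVB week 6 replicate 2), 1 to 4 at week 8 (1 without PyMT week 8 replicate 1) and 2 to 7 at week 10 (2 without PyMT week 10 replicate 1, 7 without FVB week 10 replicate 3). Among member pairs, 8 passed with CPM values and 1 with normalized counts. Thbs4 at week 6 was 0.16 with all libraries and -1.18 to 1.08 with 1 left out, negative without PyMT week 6 replicate 1 (-1.18) or FVB week 6 replicate 3 (-0.33). Without PyMT week 8 replicate 3, Ctgf at week 8 was -0.36 and Cyr61 -0.0078, the lower ends of ranges that reached 0.57 and 0.44. The change of the Spp1 difference from week 8 to week 10 was -0.75 with all libraries. It ran from -2.45 to 0.96 with 1 library left out (0.96 without FVB week 10 replicate 3). Without the 4 muscle-rich libraries it was 0.95. In that fit the mean difference over the 4 weeks was 3.45 for Ckm and 0.80 for Acta1.

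With the replicate block, 3 members were called at week 6 and 5 at each of weeks 8, 10 and 12. Postn at week 6 (-1.37, adjusted p = 0.0903) and week 8 (-1.76, adjusted p = 0.0636) and Ctgf at week 10 (1.30, adjusted p = 0.0957) were not called, while Tnc at week 8 (1.06, adjusted p = 0.0459), Tnc at week 10 (2.50, adjusted p = 0.0124) and Thbs1 at week 10 (1.70, adjusted p = 0.0161) were. The mean difference of Comp was 2.67 (adjusted p = 0.0562) with the block and 2.25 (adjusted p = 0.131) without the muscle-rich libraries. Scaling by library size only raised the median log2 fold change of all genes by 0.24 to 0.32. Over all genes, called counts were 1498 at week 6 (857 to 2229 over alternatives), 1484 at week 8 (513 to 2706), 2076 at week 10 (1262 to 3012) and 3092 at week 12 (2189 to 3670). Thbs3 had a count of 0 in 1 PyMT library and Thbs4 in 2 FVB libraries, all 3 of them libraries with packets.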
